A study of Homo sapiens with 4 samples.

Results

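Proteasome genes were followed in RKO cells, a poorly differentiated human colon carcinoma line, that overexpressed HADH-S, and in control RKO cells labelled wild type. HADH is an enzyme that oxidises fatty acids in mitochondria, and the S form is called nuclear in the title of the series. Each condition was represented by 1 RNA library, and the labels do not say how HADH-S was introduced or whether the overexpressing cells are a clone. Genes were taken whose symbol starts with PSMA, PSMB, PSMC, PSMD, PSME, PSMF or PSMG followed by a digit. This gave 48 of the 13092 genes with a value, and all 48 had reads in both libraries. PSMA8, of the testis proteasome, and PSMB11, of the thymus proteasome, had no value in either library and were not evaluated. Among the 48, PSMC3IP and PSME3IP1 are named for binding a proteasome protein and are not subunits.

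The proteasome degrades proteins tagged with ubiquitin. Its barrel-shaped core, the 20S particle, is built of alpha and beta rings and cuts proteins at catalytic beta subunits, while the 19S regulatory particle recognises, unfolds and feeds in the substrate through a ring of ATPases. Interferons induce replacement catalytic subunits, PSMB8, PSMB9 and PSMB10, which take the places of PSMB5, PSMB6 and PSMB7 in newly built cores to form the immunoproteasome. They also induce PSME1 and PSME2, the alpha and beta chains of the PA28 cap. Peptides made this way are carried into the endoplasmic reticulum by TAP1 and TAP2 and displayed on MHC class I.

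The HADH-S library held 6963608 reads assigned to genes and the control library 6773421. HADH, which checks the labels, was at 54.4 RPKM in HADH-S cells against 26.5 RPKM in control cells, a ratio of 2.05 with a 95% counting interval of 1.79 to 2.35. RPKM scales reads by the length of the transcript and by the library's total. Conditions with 1 library each cannot be tested against each other, so "higher" and "lower" below describe these libraries, and the intervals cover counting error only. Of the colon epithelium markers, 4 of 7 were listed, and all 4 were above 0, with a median log2 value of 0.15 and intervals that held 1. CDX2 had a ratio of 1.22, EPCAM one of 1.17, KRT8 one of 1.11 and KRT18, the most abundant, one of 1.02, whereas the adhesion gene CDH1 and the differentiation genes KRT20 and VIL1 had no value. Leukocytes use immunoproteasomes at rest, and none of the 7 leukocyte markers, PTPRC and HLA-DRA among them, had a value in either library. In bulk RNA, a change in every cell and a larger change in some cells cannot be told apart.

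Proteasome genes were abundant in both libraries and mostly close to a ratio of 1. They took 1.02% of assigned reads in HADH-S cells and 1.01% in control cells, and 47 of the 48 lay above the median level of all genes. None of the 48 differed by 2-fold or by 1.5-fold in either direction on the log2(RPKM + 1) scale. Over all 10331 genes that averaged at least 1 RPKM, 0.3% were higher and 0.0484% lower by 2-fold, and 1.47% were higher and 0.436% lower by 1.5-fold. At 1.2-fold, 3 members were higher, PSMB9, PSMB10 and PSMD9, and 0 were lower. These 3 are 6.25% of the members, against 11.5% of all genes that were higher at this limit and 6.76% that were lower, so the count is no result about proteasome genes as a whole. The median log2 value was 0.02 over the 48 members and 0.01 over all 10331 genes.

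**Figure D1:**
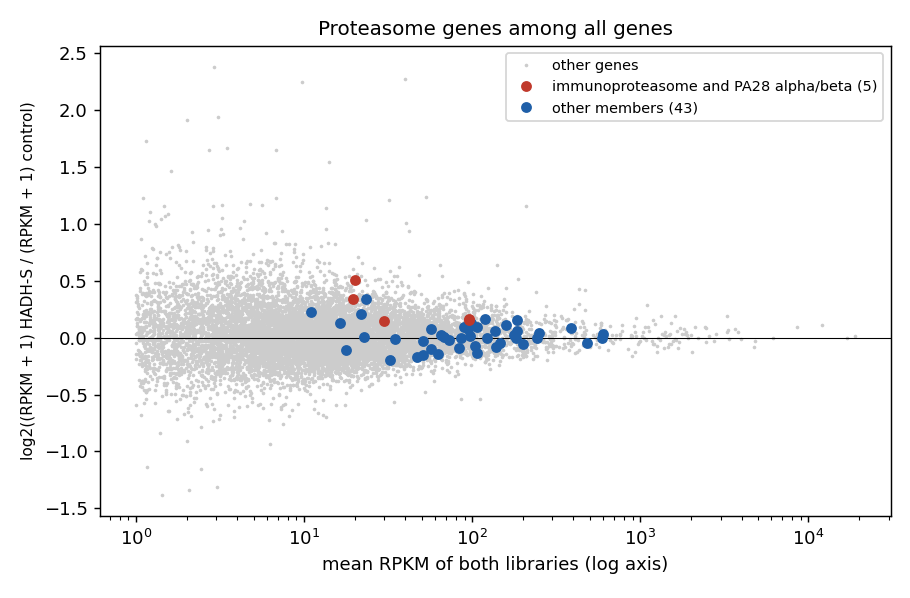
Each point is a gene, with the mean RPKM of both libraries on a log x axis and the log2 ratio of (RPKM + 1), HADH-S over control, on the y axis. The 5 immunoproteasome and PA28 genes (red) lie above 0, between 0.14 and 0.50, and the 43 other members (blue) lie on both sides of 0, between -0.19 and 0.33.

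The interferon-inducible set was then compared with the constitutive subunits. All 5 genes, PSMB8, PSMB9, PSMB10, PSME1 and PSME2, were higher with HADH-S, with ratios from 1.11 to 1.44 and a median log2 value of 0.17. Of all 10331 genes, 5396 were above 0. The intervals of PSMB9 and PSME1 lay above 1, and those of the other 3 held 1. Among all genes, 13.8% had an interval above 1 and 11.6% had one below. The 31 standard subunits of the 20S and 19S particles had a median log2 value of -0.00, with 15 above 0 and 16 below, and ratios from 0.902 to 1.12. The medians differed by 0.17 on the log2 scale. Summed reads gave a ratio of 1.15 (counting interval 1.08 to 1.23) for the inducible set and of 1.00 (0.990 to 1.01) for the standard subunits. PSME1 and PSME2 gave 1419 of the 1983 reads of the inducible set with HADH-S, so its sum mostly describes these 2 genes. The log2 ranges overlapped, since 2 standard subunits, PSMA6 and PSMC3, lay above the lowest of the inducible genes, and 0 lay above the inducible median. Of the members in neither group, PSMD9 (0.33), PSMC3IP (0.22) and PSMG3 (0.21) lay above that median and the rest below it. Median reads with HADH-S were 245 for the inducible genes and 1378 for the standard subunits, so counting error spreads the inducible values more. The 31 standard subunits had log2 ratios whose SD was 1.46 times that of counting error alone, and with 1 library per condition differences between genes and noise between libraries cannot be told apart in it.

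The start regions of the inducible genes are shown because 4 of the 5, all but PSMB9, hold letters that the interferon-activated factor complex ISGF3 and IRF proteins are known to bind. Each window runs from 250 bases before to 50 bases after a RefSeq start of the gene in GRCh38.p14. It is given 5′ to 3′ on the gene's own strand. Capitals mark the core of the interferon-stimulated response element (ISRE), searched on both strands as GAAA, 2 free bases and GAAA.
PSMB8, chr6:32843998-32844297, minus strand: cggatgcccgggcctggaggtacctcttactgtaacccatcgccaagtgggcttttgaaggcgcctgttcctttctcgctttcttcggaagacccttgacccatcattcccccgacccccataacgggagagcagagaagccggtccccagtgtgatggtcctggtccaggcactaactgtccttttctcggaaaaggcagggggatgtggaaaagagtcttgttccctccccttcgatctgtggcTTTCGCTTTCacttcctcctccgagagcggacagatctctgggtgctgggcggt
PSMB9, chr6:32853942-32854241, plus strand: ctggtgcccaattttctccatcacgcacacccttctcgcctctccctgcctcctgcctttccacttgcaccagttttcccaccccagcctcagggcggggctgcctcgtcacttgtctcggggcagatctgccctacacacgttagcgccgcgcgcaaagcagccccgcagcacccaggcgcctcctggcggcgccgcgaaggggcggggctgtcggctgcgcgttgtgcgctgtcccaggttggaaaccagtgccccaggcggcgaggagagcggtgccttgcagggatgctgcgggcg
PSMB10, chr16:67936801-67937100, minus strand: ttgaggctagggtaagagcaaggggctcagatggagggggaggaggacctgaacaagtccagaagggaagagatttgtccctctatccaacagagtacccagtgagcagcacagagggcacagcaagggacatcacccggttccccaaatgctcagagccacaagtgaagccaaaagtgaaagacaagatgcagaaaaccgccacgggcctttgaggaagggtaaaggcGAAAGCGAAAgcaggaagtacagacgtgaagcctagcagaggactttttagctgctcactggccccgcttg
PSME1, chr14:24135944-24136243, plus strand: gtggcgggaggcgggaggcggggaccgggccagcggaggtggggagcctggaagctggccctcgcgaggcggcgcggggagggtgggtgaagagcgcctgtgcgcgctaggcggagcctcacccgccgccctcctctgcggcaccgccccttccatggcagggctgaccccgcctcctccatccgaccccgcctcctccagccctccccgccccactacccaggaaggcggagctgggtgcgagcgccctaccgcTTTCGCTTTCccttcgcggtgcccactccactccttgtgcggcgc
PSME2, chr14:24146561-24146860, minus strand: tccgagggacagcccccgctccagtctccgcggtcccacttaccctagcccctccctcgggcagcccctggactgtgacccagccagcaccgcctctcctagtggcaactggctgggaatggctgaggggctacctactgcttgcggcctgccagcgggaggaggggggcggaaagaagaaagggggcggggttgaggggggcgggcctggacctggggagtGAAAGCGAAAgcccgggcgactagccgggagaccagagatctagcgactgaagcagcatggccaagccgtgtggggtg
TAP1, the neighbour of PSMB9, chr6:32853655-32853954, minus strand: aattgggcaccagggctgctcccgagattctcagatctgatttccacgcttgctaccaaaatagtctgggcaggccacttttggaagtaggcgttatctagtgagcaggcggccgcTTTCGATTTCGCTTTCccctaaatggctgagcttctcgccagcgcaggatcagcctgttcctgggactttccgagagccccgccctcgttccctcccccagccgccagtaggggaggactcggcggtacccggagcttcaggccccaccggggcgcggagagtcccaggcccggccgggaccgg

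The ISRE core was present in 4 of the 5 inducible genes and in each of the 4 as the same letters, GAAAGCGAAA, on the gene's strand for PSMB10 and PSME2 and on the opposite strand for PSMB8 and PSME1. It began 21 bases before the start of PSMB10, 28 before that of PSME2 and 4 before that of PSMB8, and 5 bases after that of PSME1. For PSMB8 and TAP1 it lay in 1 of 2 start windows, the one shown. For PSMB8 that window is set on a start inside the gene, whose outer end on that side is at 32844679. The core was found in 4.38% of the 27305 genes with a window and in 2 of the 26 standard subunits with one, PSMA4 and PSMB4, with other letters at its centre. GAAAGCGAAA itself, a string singled out after the sequences had been seen, was in 0.125% of genes, in 0 of the 26 standard subunits, and in the window of the assembly chaperone PSMG4. The window of PSMB9 held no such core. PSMB9 and TAP1 are read in opposite directions from starts 488 bases apart, and the TAP1 window held 2 overlapping cores, the nearer of which ended 354 bases before the PSMB9 start.

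A pair of other motifs was searched on both strands as well. The GAS core, the interferon-gamma activated site, was searched as TTCNNNGAA and was in 1 of the 5 inducible genes, PSMB8, in 5 of 26 standard subunits and in 9.38% of genes. The core of the antioxidant response element, to which NFE2L1 and NFE2L2 bind, was searched as TGACNNNGC and was in 3 of 5, in 7 of 26 and in 16.1% of genes. Across all tested genes with a window, the 324 with an ISRE core had a median log2 value of 0.02 and the 8100 without one had 0.01. Of those with the core 18.5% were higher by 1.2-fold, against 10.7% of those without, and shares lower were not split by motif. The 21 tested genes with GAAAGCGAAA had a median of 0.15, but they include the 4 inducible genes from whose windows this string was chosen. Over the 16 that are not among the 48 proteasome genes the median was 0.14. The share of the 21 that was higher by 1.2-fold was close to the 18.5% for any ISRE core. By that measure the string did not stand out from the plain core. A match describes letters and is not evidence of binding.

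The 3 inducible catalytic subunits were low in both libraries beside the standard subunits they replace. PSMB9 (chromosome 6, 32854192 to 32859851), which replaces the caspase-like PSMB6, was at 23.9 RPKM in HADH-S cells against 16.5 RPKM in control cells, from 169 HADH-S and 114 control reads. Its ratio of 1.44 was the highest of the 48 members, with an interval of 1.13 to 1.85. PSMB10 (chromosome 16, 67934506 to 67936850), which replaces the trypsin-like PSMB7, was at 22.0 RPKM in HADH-S cells against 17.2 RPKM in control cells, from 150 HADH-S and 114 control reads. Its ratio of 1.28 had an interval of 0.997 to 1.65, which just includes 1.

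PSMB8 (chromosome 6, 32840717 to 32844679), which replaces the chymotrypsin-like PSMB5, was at 31.3 RPKM in HADH-S cells against 28.2 RPKM in control cells, from 245 HADH-S and 215 control reads. Its ratio was 1.11 (0.919 to 1.34), and a difference was not detectable at this depth. PSMB8 overlaps the antisense gene PSMB8-AS1, and since the strand setting is not given, reads of the pair cannot be told apart.

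The PA28 chains stood several times higher than the inducible catalytic subunits and had ratios close to that of PSMB8. PSME1 (chromosome 14, 24136194 to 24138962) was at 101 RPKM in HADH-S cells against 91.2 RPKM in control cells, from 802 HADH-S and 702 control reads, a ratio of 1.11 (1.003 to 1.23). PSME2 (chromosome 14, 24143365 to 24146610) was also at 101 RPKM with HADH-S and was at 90.2 RPKM in control cells, from 617 HADH-S and 534 control reads, a ratio of 1.12 (0.999 to 1.26). The near-equal levels of the chains, which pair in one ring, held in both libraries. RefSeq lists 6 pseudogenes named after PSME2, so its reads are less certain.

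**Figure D2:**
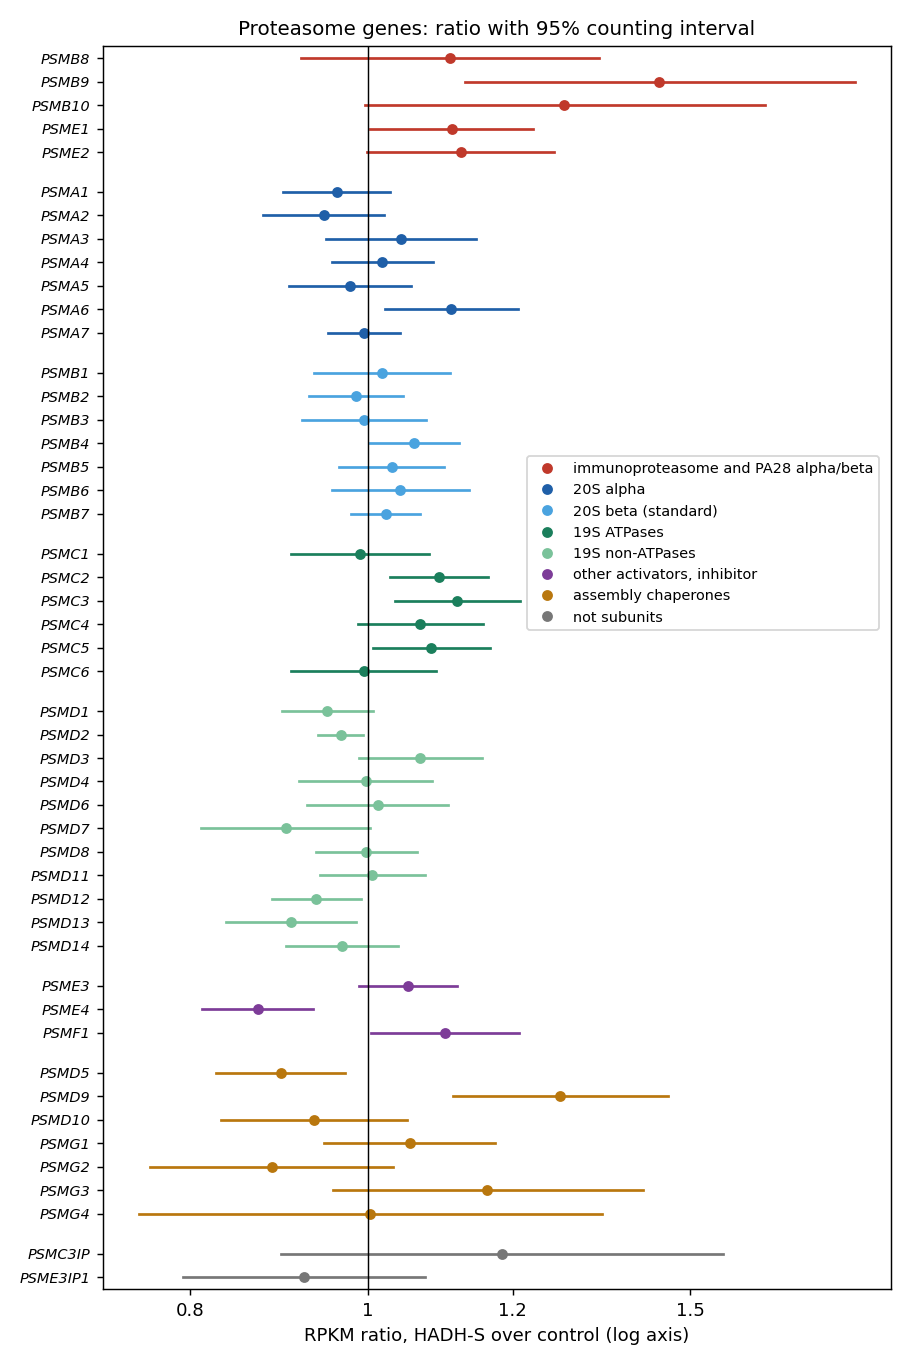
Points are RPKM ratios of HADH-S over control for the 48 members on a log x axis, bars are exact 95% counting intervals, and members run down the page by structural class. The 5 inducible genes at the top lie right of 1, PSMB9 furthest at 1.44, and PSME4 lies furthest left at 0.871.

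Each inducible catalytic subunit was then set against the standard subunit whose place it takes, a comparison that does not depend on how the libraries are scaled. PSMB9 stood at 12.6 RPKM per 100 RPKM of PSMB6 in HADH-S cells and at 9.12 in control cells. The ratio of these ratios was 1.38, with an exact conditional interval of 1.07 to 1.80 from the reads. For PSMB10 against PSMB7 the values were 3.63 per 100 in HADH-S cells and 2.90 in control cells, and the ratio of ratios was 1.25 (0.971 to 1.62). For PSMB8 against PSMB5 they were 12.4 per 100 in HADH-S cells and 11.5 in control cells, and the ratio of ratios was 1.08 (0.881 to 1.31). Over the 3 pairs together, inducible subunits took 7.37% of reads with HADH-S (exact binomial interval 6.79 to 7.98) and 6.19% in the control (5.65 to 6.78), a ratio of ratios of 1.21 (1.06 to 1.37). Transcripts of standard catalytic subunits therefore outnumbered those of inducible ones by a wide margin in both libraries.

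**Figure D3:**
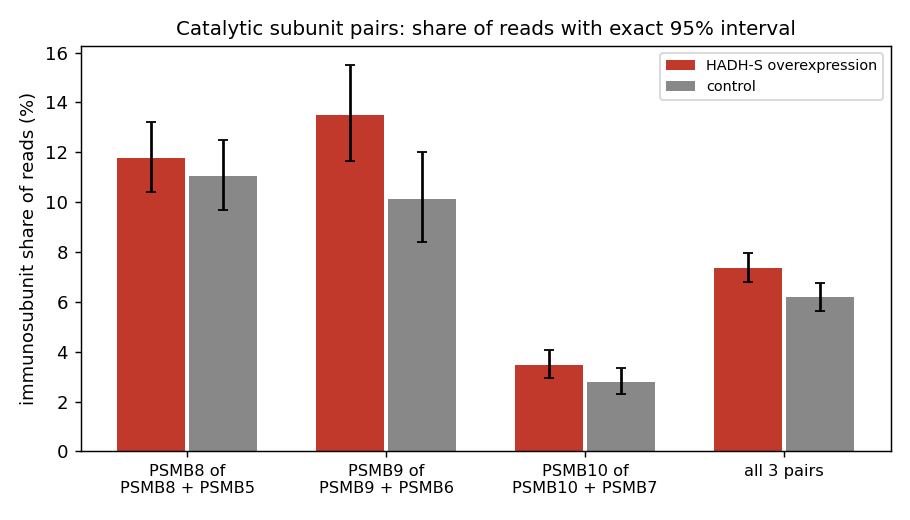
Bars give the share of reads, in percent, that fell on the inducible subunit of each catalytic pair, with HADH-S (red) left of the control (grey), and error bars are exact 95% binomial intervals. The share was 13.5% in HADH-S cells and 10.1% in control cells for PSMB9, and for all 3 pairs 7.37% in HADH-S cells and 6.19% in control cells.

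The standard catalytic subunits themselves were close to 1. PSMB5 was at 253 RPKM in HADH-S cells against 245 RPKM in control cells (ratio 1.03, interval 0.964 to 1.10). PSMB6 stood at 189 RPKM in HADH-S cells and 181 RPKM in control cells (ratio 1.04, interval 0.955 to 1.14). The level of PSMB7 was 608 RPKM in HADH-S cells and 595 RPKM in control cells (ratio 1.02, interval 0.979 to 1.07). All 3 intervals held 1. Of the 7 standard beta subunits, 5 had a log2 value above 0 and 1, the non-catalytic PSMB4, had an interval above 1, at 401 RPKM in HADH-S cells against 378 RPKM in control cells (ratio 1.06, interval 1.002 to 1.12). The alpha ring, which gates the entry to the core, had 3 of 7 members above 0 and a median log2 value of -0.01. PSMA6 was its exception, at 194 RPKM in HADH-S cells against 175 RPKM in control cells (ratio 1.11, interval 1.02 to 1.21). PSMA2 (ratio 0.946, interval 0.877 to 1.02) and PSMA3 (1.04, interval 0.949 to 1.15) followed in size and their intervals held 1. RefSeq lists 4 pseudogenes named after PSMA6.

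Within the 19S particle the medians of the ATPases and of the other subunits lay on opposite sides of 0. Intervals lay above 1 for 13.8% of all genes and below 1 for 11.6%, at a lower median depth than the members had. Of the 6 ATPases, which form the unfolding ring, 4 were above 0, 3 had an interval above 1 and 0 one below, with a median log2 value of 0.10. PSMC3 was at 125 RPKM in HADH-S cells against 112 RPKM in control cells (ratio 1.12, interval 1.04 to 1.21), PSMC2 had a ratio of 1.09 (1.03 to 1.16), and PSMC5 had one of 1.08 (1.01 to 1.17). Of the 11 non-ATPase subunits, 3 were above 0, 0 had an interval above 1 and 3 had one below, and the median was -0.05.

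Lid subunits held both the lowest and the highest ratios among them. PSMD7, the partner of the deubiquitinase PSMD14, was at 59.5 RPKM in HADH-S cells against 66.0 RPKM in control cells (ratio 0.902, interval 0.811 to 1.003). PSMD13 was at 102 RPKM in HADH-S cells against 112 RPKM in control cells (ratio 0.908, interval 0.837 to 0.986). The intervals of the lid subunit PSMD12 (0.937, interval 0.886 to 0.991) and of the base scaffold PSMD2 (0.967, interval 0.940 to 0.994) also lay below 1. PSMD3, also a lid subunit, was the highest of the non-ATPase subunits, at 1.07 (0.989 to 1.15). PSMD14 itself had a ratio of 0.968 (0.902 to 1.04) and the ubiquitin receptor PSMD4 one of 0.997 (0.917 to 1.08). Summed reads gave 1.07 (1.03 to 1.10) for the ATPases and 0.971 (0.954 to 0.988) for the others, where PSMD2 alone gave 9551 of 25089 reads with HADH-S. Neither pattern has a replicate check. The class medians kept their signs under every rescaling of the libraries that was tried, but these shifts were smaller than the medians, so this checks neither pattern.

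The remaining activators and the inhibitor went different ways. PSME4, the PA200 cap known for histone turnover, was at 30.2 RPKM in HADH-S cells against 34.6 RPKM in control cells, the lowest ratio of the 48 at 0.871 (0.812 to 0.934). PSME3, the nuclear PA28 gamma chain, was at 96.6 RPKM in HADH-S cells against 91.9 RPKM in control cells (ratio 1.05, interval 0.989 to 1.12). PSMF1, first described as a proteasome inhibitor, was at 17.1 RPKM in HADH-S cells and 15.5 RPKM in control cells (ratio 1.10, interval 1.004 to 1.21).

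Assembly chaperones, which help build the particles and then leave, included the highest ratio outside the inducible set. PSMD9, a chaperone of the ATPase ring, was at 26.3 RPKM in HADH-S cells against 20.6 RPKM in control cells, from 499 HADH-S and 381 control reads, a ratio of 1.27 (1.11 to 1.46). PSMD5, another chaperone of that ring, lay on the other side at 48.3 RPKM in HADH-S cells against 53.8 RPKM in control cells (ratio 0.896, interval 0.826 to 0.972). The third, PSMD10 (gankyrin), had a ratio of 0.935 (0.831 to 1.05).

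Among chaperones of the core, PSMG3 had a ratio of 1.16 (0.957 to 1.41), PSMG2 one of 0.886 (0.760 to 1.03), PSMG1 one of 1.05 (0.947 to 1.17) and PSMG4 one of 1.00 (0.750 to 1.34). PSMG4 was the member with the fewest reads, 99 in HADH-S cells and 96 in control cells. PSMC3IP, a factor of meiotic recombination, had a ratio of 1.18 (0.897 to 1.56) and PSME3IP1, which binds PSME3, one of 0.923 (0.793 to 1.08). Over all 48 members, 9 intervals lay above 1 (18.8%) and 5 below (10.4%), against 13.8% and 11.6% of all genes, and the members had more reads, with a median of 1164 against 291 over all genes with HADH-S.

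Levels of the standard subunits ranged widely although the particles hold them in fixed numbers. RPKM ran from 34.7 for the ATPase PSMC1 to 608 for PSMB7 with HADH-S, a 17.5-fold range, and in the control from 35.0 to 595, a 17.0-fold range, between the same genes. PSMA7 followed PSMB7 at 587 RPKM in HADH-S cells against 590 RPKM in control cells, and PSMD2 was at 471 RPKM in HADH-S cells and 487 RPKM in control cells. These levels depend on the transcript to which the authors tied each gene. The 8 standard subunits on transcripts over 3000 nt lay between 34.7 and 102 RPKM with HADH-S, and the other 23 between 59.5 and 608 RPKM. Across the 31 genes, Pearson's r of log2 RPKM with log2 transcript length was -0.67 in HADH-S cells and -0.66 in control cells, while that of log2 reads was 0.21 in HADH-S cells and 0.24 in control cells. Length enters RPKM as a divisor, so these points share it.

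With the same reads divided by the coding length instead, a choice made after the data had been seen, the range over the 31 subunits was 7.60-fold with HADH-S and 6.98-fold in the control. PSMA4, on a listed transcript of 4378 nt with 783 nt of coding sequence, was at 65.5 RPKM in HADH-S cells against 64.3 RPKM in control cells, and on the coding scale at 366 in HADH-S cells and 360 in control cells. PSMB2, with 4426 and 603 nt, was at 72.5 RPKM in HADH-S cells and 73.5 RPKM in control cells, and on the coding scale at 532 in HADH-S cells and 540 in control cells. The ratio between libraries is the same on both scales. PSMB8, PSMB9 and PSMB10 and their standard partners have listed transcripts of 824 to 1124 nt, and on the coding scale the inducible subunits were again low, at 42.5, 36.9 and 26.3 with HADH-S and at 38.3, 25.6 and 20.6 in the control.

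**Figure D4:**
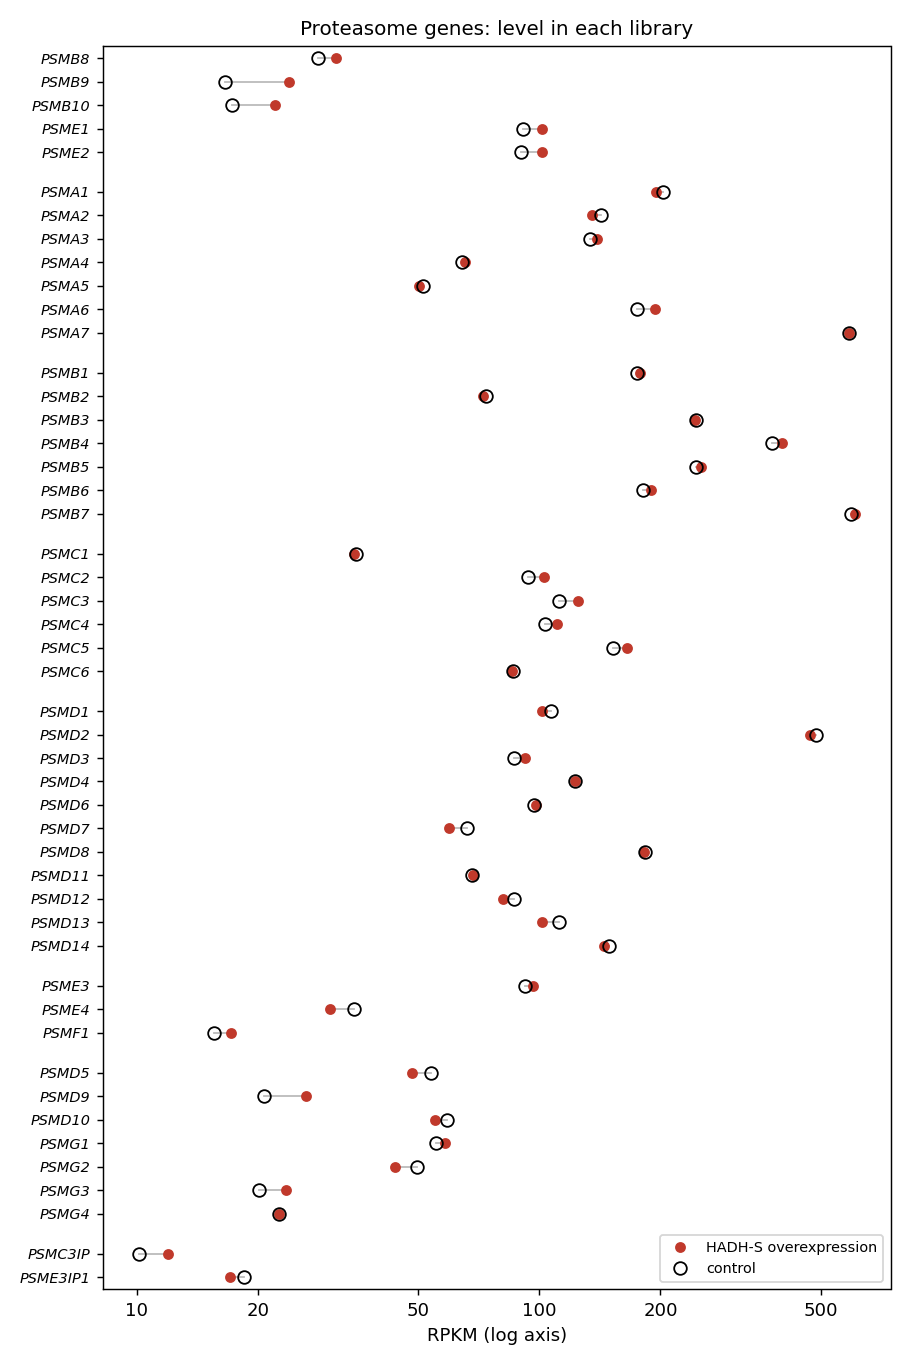
Levels of the 48 members in RPKM on a log x axis, with HADH-S as filled red points and the control as open circles, by structural class down the page. The inducible catalytic subunits lie between 16.5 and 31.3 RPKM in both libraries, and the standard beta subunits between 72.5 and 608 RPKM.

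**Figure D5:**
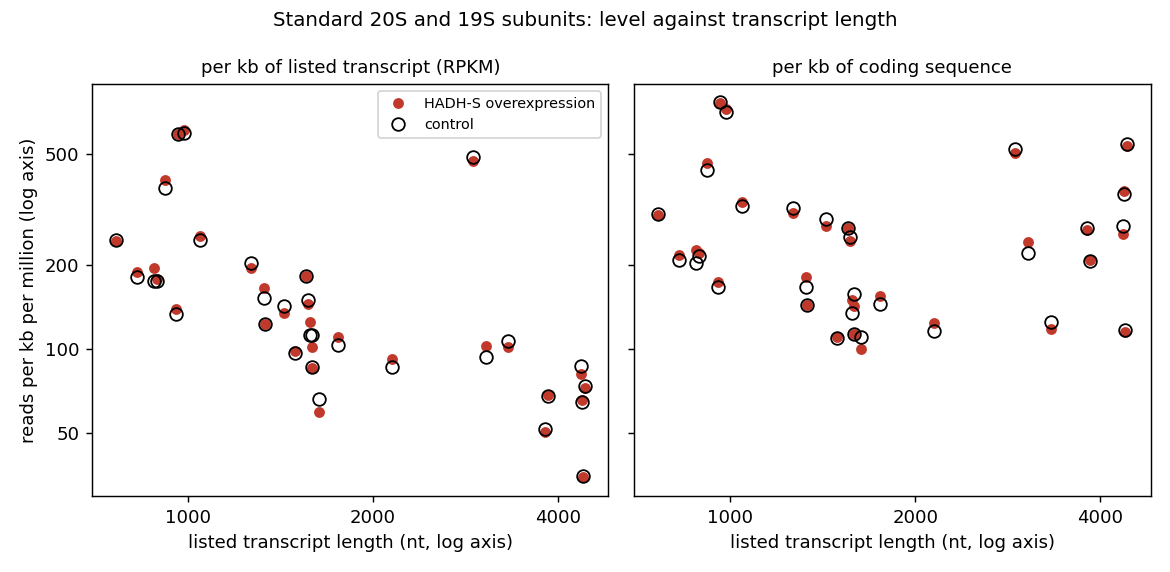
Each point is 1 of the 31 standard subunits, with HADH-S filled and the control open, plotted against the length of the listed transcript on log axes. Reads per kilobase of transcript (left) span 17.5-fold with HADH-S and reads per kilobase of coding sequence (right) span 7.60-fold.

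Position was described next. PSMB8 and PSMB9 lie in the MHC region beside the peptide transporter genes, in the order TAP2, PSMB8, TAP1, PSMB9. TAP1 was at 30.5 RPKM in HADH-S cells against 25.1 RPKM in control cells (ratio 1.22, interval 1.08 to 1.37), and TAP2 was at 28.6 RPKM in HADH-S cells against 23.0 RPKM in control cells (ratio 1.24, interval 1.14 to 1.36). All 4 genes of this run were thus above 1. PSME1 and PSME2 lie within 20000 bases of RNF31, and PSME2 also of IRF9. RNF31, of the linear ubiquitin ligase, was at 13.1 RPKM in HADH-S cells against 8.43 RPKM in control cells (ratio 1.55, interval 1.30 to 1.86), and IRF9, a subunit of ISGF3, was at 21.5 RPKM in HADH-S cells and 6.72 RPKM in control cells (ratio 3.19, interval 2.45 to 4.20). EMC9, between PSME1 and PSME2, went the other way, at 12.5 RPKM in HADH-S cells against 16.1 RPKM in control cells (0.776, interval 0.575 to 1.05). Of the 9 neighbours within that distance of the 5 inducible genes at a mean RPKM of at least 1, 5 were above 0, 4 had an interval above 1 and 0 had one below. Over all genes, 5396 of 10331 were above 0, and 13.8% had an interval above 1 and 11.6% one below. The share of neighbours above 0 is thus near that of genes in general. The share with an interval above 1, 4 of 9 (TAP1, TAP2, RNF31 and IRF9), is larger than 13.8% but rests on few genes.

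Regulators of the inducible genes lay on both sides of 1. STAT2, the partner of IRF9 in ISGF3, was at 8.998 RPKM in HADH-S cells against 6.27 RPKM in control cells (ratio 1.44, interval 1.19 to 1.74). IRF9 was higher as well, as given above. IRF1, known to drive PSMB9 and TAP1, was low at 3.03 RPKM in HADH-S cells against 2.37 RPKM in control cells (1.28, interval 0.895 to 1.84), and NLRC5, an activator of class I genes, was at 2.36 RPKM in HADH-S cells and 1.80 RPKM in control cells (ratio 1.31, interval 0.979 to 1.77). The chains of the interferon receptors, IFNGR1, IFNGR2, IFNAR1 and IFNAR2, had ratios of 0.857, 0.855, 0.901 and 0.845, and the intervals of IFNGR2 and IFNAR1 lay below 1. Among the kinases bound to these receptors, TYK2 had a ratio of 1.31 (1.14 to 1.501), JAK1 one of 0.934 (0.859 to 1.02) and JAK2 one of 0.894 (0.703 to 1.14). Of the 12 genes on this list, 6 were above 0, 4 had an interval above 1 and 2 had one below, with a median log2 value of 0.08. Over all genes, 5396 of 10331 were above 0, 13.8% had an interval above 1 and 11.6% had one below. What part these regulators have in the levels of the inducible subunits was not tested.

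Partners of the proteasome outside the PSM symbols lay on both sides of 1. Of 16 such genes with a value, 7 were above 0, 3 intervals lay above 1 and 3 below, with a median log2 value of -0.01. For all genes the figures were 5396 of 10331 above 0, with 13.8% of intervals above 1 and 11.6% below. ADRM1, the 19S ubiquitin receptor that recruits UCHL5, was at 152 RPKM in HADH-S cells against 125 RPKM in control cells (ratio 1.21, interval 1.13 to 1.30), whereas UCHL5 had a ratio of 0.888 (0.796 to 0.990) and the other 19S deubiquitinase USP14 one of 0.908 (0.832 to 0.990). PITHD1 had a ratio of 1.16 (1.03 to 1.31), and POMP, the chaperone of core maturation, one of 1.05 (0.977 to 1.14).

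NFE2L1, the transcription factor that restores proteasome genes when the proteasome is inhibited, was at 29.4 RPKM in HADH-S cells against 27.9 RPKM in control cells (1.05, interval 0.961 to 1.15). Of its list of 9 regulators, 8 were above 0, 0 had an interval above 1 and 1 had one below. Across all genes these were 5396 of 10331, 13.8% and 11.6%. The interval below 1 was that of DDI2, the protease that cleaves NFE2L1 (0.851, interval 0.758 to 0.955). MAFK (1.16, interval 0.962 to 1.41) and NGLY1 (1.15, interval 0.981 to 1.36) followed in size. Among the 4 ubiquitin genes the median log2 value was 0.03, with RPS27A at a ratio of 1.02 (0.984 to 1.06) and UBB at 0.975 (0.944 to 1.01). On the class I list, which runs from TAP1 to the HLA heavy chains, 9 of 10 were above 0, 8 had an interval above 1 and 0 had one below, with a median log2 value of 0.24.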

How the data were processed

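RNA was measured in 1 library of RKO cells overexpressing HADH-S and 1 control library. Trizol was used for RNA extraction, per the labels' protocols. The authors deposited 1 table per library with 1 RPKM value per gene, per the file headers. The submitters' processing notes, shared by all samples, name fastp 0.23.2, SAMtools 1.9 and GRCh38. The aligner, counter, strand setting and annotation were not given in the sources used here. The ChIP and input libraries were not analysed here.

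RPKM times transcript length gave whole reads for 100% of values within 0.01 reads. Genes absent from 1 table were taken as 0 there. Differences are the log2 ratio of (RPKM + 1), HADH-S over control, at a mean RPKM of at least 1. Ratio intervals are exact conditional (Clopper-Pearson) at 95%. Copies of 1 amplified molecule are not independent reads, so intervals cover counting error only. Paired ratios used the exact conditional odds ratio. Steps were checked on simulated reads. The members, gene lists and motifs were chosen with earlier results of these data known. All members could be named, with the 3 largest absolute log2 values per class or list, except that some listed genes are not reported here. RefSeq supplied promoter windows for 42 of 48 members. Python 3.11.15, NumPy 2.4.6, pandas 2.3.3, SciPy 1.17.1 and matplotlib 3.10.9 were used. Alternatives were pseudocounts of 0.1, 0.5 and 5, 3 rescalings, no filter or a mean RPKM of at least 5, folds of 1.5 and 1.2, list means, and changed lists.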

Additional observations from a re-analysis of the deposited data

How the results depend on the processing

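No paired analysis was possible because each condition has 1 library, and no replicate could be left out. All 5 inducible genes stayed above 0 under the 3 pseudocounts and 3 rescalings, between 0.12 and 0.53 on the log2 scale. These signs could not have changed. A shared pseudocount cannot change a sign, and the rescalings shifted values by less than the lowest inducible value. The median of the 5 genes was between 0.14 and 0.26 under every alternative, with 0.26 as a mean and 0.24 without PSME2, an alternative chosen after seeing the data. The median of the standard subunits was -0.027 with equal RPKM totals, and 0.01 as a mean. The shift with equal totals was more than 0.5 times the log2 width of the counting interval of their summed reads. Under rescaling, 2 or 3 members changed sign, PSMD11, PSMG4 and, with equal totals, PSMD6, all with intervals that hold 1. The 288 single-member values under pseudocounts and rescalings each shifted by at most 0.5 times the log2 width of the member's counting interval. The rescalings shift all members by nearly the same small amount, so this could hardly have come out otherwise. Members past the size limit numbered 0 at 2-fold and 1.5-fold and 3 higher at 1.2-fold. The counts over all genes followed the treatment of low genes. Genes higher by 2-fold, 31 as reported, numbered 69 with a pseudocount of 0.1, 8 with 5 and 12 at a mean RPKM of at least 5. Genes lower by 2-fold, 5 as reported, numbered 15 with a pseudocount of 0.1, 8 with 0.5, 9 without a filter, and 0 with a pseudocount of 5 or a mean RPKM of at least 5. At 1.5-fold the counts were 152 higher and 45 lower, and at 1.2-fold 1193 and 698. A larger pseudocount shrinks low genes by construction. Depth limits the inducible catalytic subunits, which had 114 to 245 reads each.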
